A study of Mus musculus with 18 samples.

Results

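Sister chromatid cohesion is built in S phase and dissolved at anaphase, and 6 genes that carry out or govern these steps were followed here in donor T cells with and without Wapl. They are Esco1 and Esco2 (acetyltransferases of the cohesin subunit Smc3), Hdac8 (the Smc3 deacetylase), Cdca5 (sororin), Pttg1 (securin) and Espl1 (separase). The 6 were chosen by gene symbol, with earlier results of these data known. The count table held 46073 genes, of which 18447 passed the filter on low counts. All 6 passed that filter.

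Total RNA was sequenced from splenic donor T cells 7 days after haematopoietic stem cell transplantation, in 12 libraries that form 4 groups of 3. Every recipient was a female mouse of 8 to 12 weeks that received T-cell-depleted marrow together with splenic T cells. Syngeneic recipients were B6.SJL-Ptprca Pepcb/BoyJ mice irradiated with 9.5 Gy. Allogeneic recipients were CByJ.SJL(B6)-Ptprca/J mice, on a BALB/c background, irradiated with 8 Gy. Donors were C57BL/6 mice with intact Wapl (WT) or Wapl knockout mice (KO). By the treatment protocol the transplant settings also differed in the number of T cells given, though it states the syngeneic number ambiguously. Recipient strain, irradiation dose and T cell number therefore cannot be told apart from the meeting with foreign tissue. Each library pooled 2 to 4 mice, and the sort kept living cells that carried CD3 and CD45.2, the latter being the donor form of a leukocyte surface protein. The Cre line, the deleted exons and the sex of the KO donors are not given in the sources used here. A second set of 6 columns in the table bears the identifiers of the allogeneic libraries with an added prefix. What it holds is not given, so every allogeneic value below rests on the columns named exactly as in the sample titles. The cell type label of syngeneic KO libraries gives BALB/c as recipient, against their transplant label, which was used for grouping.

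Cohesin is a ring that encloses DNA. Wapl opens it and lets it leave the chromosome. During replication Esco1 and Esco2 acetylate Smc3, and acetylated rings recruit sororin, which holds Wapl off, so that sister chromatids stay joined. At anaphase the anaphase-promoting complex (APC/C) marks securin for destruction, separase is freed, and separase cuts the cohesin subunit Rad21. Hdac8 removes the acetyl group from released Smc3 so that the ring can be used again. Activated T cells divide quickly and pass through this cycle many times. Securin and sororin are also controlled by protein destruction, so the RNA levels below are not protein levels.

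Promoter windows are printed for sororin, separase and securin, whose RNA is compared with that of division genes below. Esco2 enters the same ratios, and no window is printed for it. The windows come from RefSeq (GRCm38.p6) and run from 250 bases before to 50 bases after the annotated start, and 4 of the 6 members had one that could be used. Capitals mark matches on either strand to CCAAT, to TTTGAA or TTTAAA (forms of the cell cycle homology region, CHR), and to TTCCCGC or TTGGCGC (forms of the E2F site). The lines give Cdca5 at chr19:6084847-6085146 (plus strand), Espl1 at chr15:102296043-102296342 (plus strand) and Pttg1 at chr11:43425932-43426231 (minus strand), each 5′ to 3′ along the gene.
Cdca5: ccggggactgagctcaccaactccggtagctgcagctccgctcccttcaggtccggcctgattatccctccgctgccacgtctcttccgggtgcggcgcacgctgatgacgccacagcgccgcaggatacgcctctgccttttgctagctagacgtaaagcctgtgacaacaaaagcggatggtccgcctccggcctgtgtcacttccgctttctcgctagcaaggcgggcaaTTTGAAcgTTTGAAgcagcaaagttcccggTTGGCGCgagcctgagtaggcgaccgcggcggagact
Espl1: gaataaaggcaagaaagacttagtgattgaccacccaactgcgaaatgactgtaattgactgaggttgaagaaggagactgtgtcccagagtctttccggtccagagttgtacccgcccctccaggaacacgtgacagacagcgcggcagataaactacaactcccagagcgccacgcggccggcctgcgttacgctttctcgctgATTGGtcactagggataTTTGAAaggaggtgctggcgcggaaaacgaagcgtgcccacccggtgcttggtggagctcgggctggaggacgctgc
Pttg1: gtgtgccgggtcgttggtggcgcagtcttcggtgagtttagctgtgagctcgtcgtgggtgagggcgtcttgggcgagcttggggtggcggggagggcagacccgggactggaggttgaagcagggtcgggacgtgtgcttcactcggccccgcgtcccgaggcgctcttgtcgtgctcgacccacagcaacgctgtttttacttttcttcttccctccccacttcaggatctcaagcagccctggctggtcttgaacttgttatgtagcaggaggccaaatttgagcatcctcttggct
The sororin window held TTTGAA at −17 and −9 and TTGGCGC at 13, counted from the RefSeq start site as 0. GENCODE M21 sets an earlier start for all 4 genes, so matches at negative positions can lie inside a gene. For sororin that start is 6084983, and its 3 matches all lie inside the gene so placed. In the separase window CCAAT lay on the opposite strand at −44, printed as ATTGG, and TTTGAA at −27. The securin window held none of the 5 letter strings. It lies wholly inside the gene as GENCODE M21 places it, because RefSeq sets the start further in, so it holds no sequence upstream of the GENCODE start. The Hdac8 window held CCAAT on both strands at −172 and −169, where the matches overlap, and TTTGAA at −244 on the opposite strand and at −129. Of 32851 promoter windows of the same length, 37.4% held CCAAT, 17.9% TTTGAA, 13.2% TTTAAA, 4.6% TTCCCGC and 2.45% TTGGCGC. These matches describe letters only. GC content was 62% for Cdca5, 56% for Espl1, 60.3% for Pttg1 and 49.7% for Hdac8, against a median of 52.7% over all windows.

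Libraries held 45965645 to 89007094 counts each, and 4 ribosomal RNA genes took between 6.62% and 27.4% of them. Wapl, listed under the older symbol Wapal, measured 170, 211 and 183 in WT libraries of the syngeneic setting and 127, 139 and 137 in those of KO (CPM, counts scaled to library size). Its allogeneic values were 169, 156 and 158 CPM in WT and 145, 124 and 151 in KO. The log2 fold change in KO was −0.48 ± 0.11 (SE; edgeR adjusted p = 0.0368) in the syngeneic setting and −0.20 ± 0.11 (adjusted p = 0.963) in the allogeneic one. The syngeneic call was lost in 9 of 14 alternatives. These include the fits without syngeneic WT replicate 2 or 3 or any syngeneic KO library (adjusted p from 0.0869 to 0.198) and the replicate block over all libraries (0.0602), whereas the block within syngeneic libraries kept it (0.00810). Which part of Wapl was deleted is not given, so these counts do not give the share of cells or alleles that lost it. The 4 Y-linked genes summed to 0.733 to 1.75 CPM in WT and 31.4 to 138 CPM in KO libraries, so Y-linked RNA and genotype moved together. Red cell precursor genes (11 tested of 12 listed, none at 0) summed to 2352 to 5505 CPM in WT and 75.6 to 197 in KO after syngeneic transplantation, and to 44.6 to 116 (WT) and 63.2 to 75.0 (KO) after allogeneic transplantation. All 8 T cell markers were detected, with sums of 2726 to 3723 (WT) and 3139 to 5037 CPM (KO) in the syngeneic and 4115 to 4533 (WT) and 3704 to 5719 CPM (KO) in the allogeneic setting. Myeloid genes such as Lyz2 and Csf1r (12, none at 0) summed to 212 to 617 CPM (WT) and 13.3 to 65.7 (KO) in the syngeneic and to 315 to 497 (WT) and 54.8 to 320.3 CPM (KO) in the allogeneic setting. The 10 B cell genes summed to 515 to 922 (WT) and 505 to 2106 CPM (KO), against 987 to 1394 (WT) and 457 to 2343 CPM (KO). The 6 NK cell genes summed to 147 to 182 (WT) and 166 to 187 CPM (KO), against 83.9 to 109 (WT, where Klra8 was at 0) and 106 to 138 CPM (KO). In such bulk samples, fewer cells of a type and less RNA per cell cannot be told apart.

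**Figure D1:**
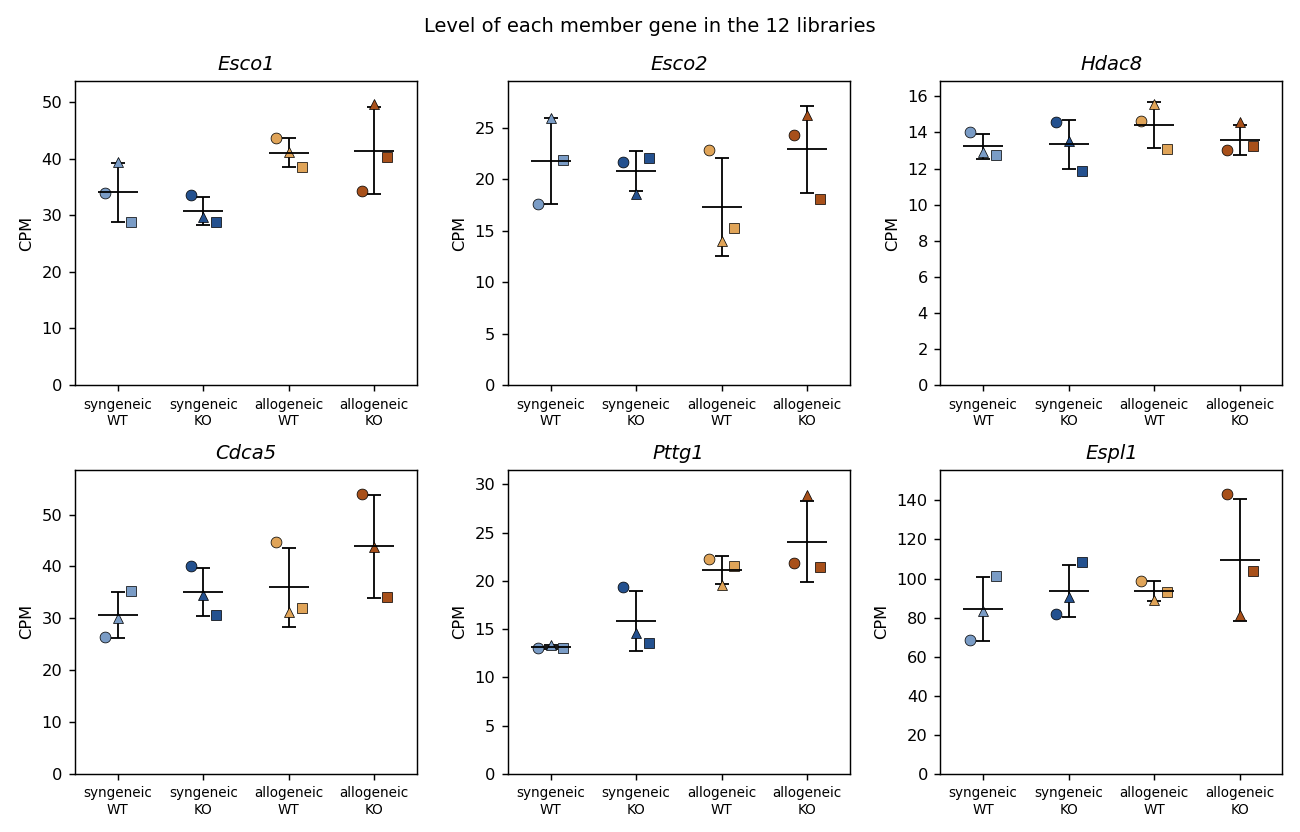
Level of each member in CPM (linear axis from 0) in the 4 groups. Circles, triangles and squares are replicates 1, 2 and 3, the long bar is the mean and the whiskers are 1 SD (n = 3). Pttg1 in both allogeneic groups lies above every syngeneic library, and Espl1 in allogeneic KO spans 81.4 to 143 CPM.

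All 6 transcripts were well above the detection limit, with 555 to 8741 counts per gene and library. Counting error alone was between 1.07% and 4.24% of a value. The spread within a group was usually larger, from a coefficient of variation of 1.34% (Pttg1, syngeneic WT) to 28.6% (Espl1, allogeneic KO). Levels of different genes were compared as CPM per kilobase of annotated exon. In syngeneic WT the order was Cdca5 at 14.3 ± 2.08 CPM per kb, Espl1 at 9.65 ± 1.87, Esco1 at 6.68 ± 1.03, Pttg1 at 6.57 ± 0.0879, Esco2 at 3.28 ± 0.625 and Hdac8 at 2.74 ± 0.144 (SD, n = 3). By this length Cdca5, Espl1 and Esco1 did not overlap there, while Esco1 overlapped Pttg1 and Esco2 overlapped Hdac8. Sororin RNA was the most abundant per kilobase in the other groups too, with 16.5 ± 2.21 for syngeneic KO and 16.9 ± 3.56 (WT) and 20.6 ± 4.66 (KO) for the allogeneic setting, where its KO range overlapped that of separase. Securin ranked next after separase in these groups, at 7.92 ± 1.55, 10.6 ± 0.716 and 12.0 ± 2.11 CPM per kb. In all 3 its range overlapped that of separase, which stood at 10.7 ± 1.54, 10.7 ± 0.574 and 12.51 ± 3.58 CPM per kb. Order and overlap depended on the gene length used. Over the longest protein-coding transcript, sororin (13.03 to 17.4 CPM per kb) and separase (10.3 to 15.2) overlapped in syngeneic WT. Securin then lay below separase without overlap in syngeneic KO, at 8.09 to 11.6 against 12.3 to 16.3 CPM per kb, and in allogeneic WT, at 11.7 to 13.3 against 13.4 to 14.9. By the same length Esco2 had means of 5.95 to 7.86 and Hdac8 of 6.84 to 7.46 CPM per kb, close to the 6.77 to 9.12 of Esco1.

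Securin was the only member called between allogeneic and syngeneic T cells, and it was higher in allogeneic cells of both genotypes. Pttg1 (ENSMUSG00000020415, GRCm38 chromosome 11, 43420250 to 43426251, minus strand) keeps separase inactive until anaphase. Its syngeneic WT libraries stood at 13.04, 13.3 and 13.05 CPM and its allogeneic WT libraries at 22.3, 19.5 and 21.5. In KO the syngeneic values were 19.4, 14.6 and 13.5 CPM and the allogeneic values 21.8, 28.9 and 21.4. The groups did not overlap in either genotype, and the nearest values, 19.4 and 21.4 CPM, were those of KO. In WT the change was 1.61-fold (95% interval 1.27 to 2.04; log2 0.68 ± 0.16 SE; edgeR adjusted p = 0.00545). In KO it was 1.52-fold (1.199 to 1.93; log2 0.60 ± 0.16; adjusted p = 0.0141). The difference between these changes was −0.08 ± 0.22 on the log2 scale (adjusted p = 1.00), with an interval from −0.56 to 0.40.

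Among all tested genes 32.3% were called in the WT comparison and 24.4% in the KO comparison. Calls of a higher level alone made up 16.4% and 13.2% of tested genes, and groups did not overlap for 55.7% and 33.6%. With 6 members, 1 call is about what these shares give, so the count shows nothing particular to the members. The WT call of Pttg1 held in all 13 alternatives, with adjusted p from 0.00034 to 0.0229. The KO call held in 10 of 13 and was lost without syngeneic KO replicate 2 (0.0647) or 3 (0.0639), and with the 2 groups fitted alone (0.0677). Markers of other cells moved between the same groups. Of 11 erythroid genes all 11 fell in allogeneic WT and 2 in KO. Of 12 myeloid genes 6 fell and 1 rose in WT, and 3 rose in KO. Of 10 B cell genes 3 fell in WT and 3 rose in KO, and of 6 NK cell genes 2 rose and 3 fell in each genotype. Of the 8 T cell markers, 3 rose in allogeneic WT by edgeR, and their median log2 change was 0.50 in WT and 0.39 in KO. The part of these markers in the result for Pttg1 was not tested.

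**Figure D2:**
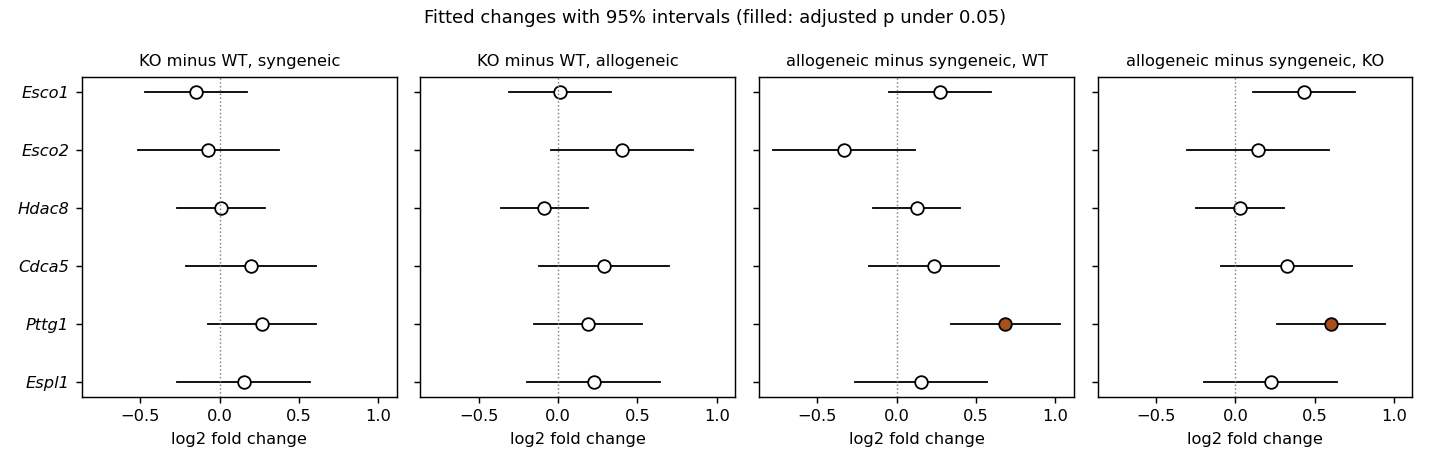
Log2 fold change of each member in the 4 comparisons (points) with 95% intervals (lines), from the edgeR fit over 12 libraries. Filled points have an adjusted p under 0.05, which holds for Pttg1 at 0.68 and 0.60 in the allogeneic against syngeneic panels and for no member in the KO against WT panels.

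Separase RNA did not pass the test in any comparison. Espl1 (ENSMUSG00000058290, chromosome 15, 102296266 to 102324357, plus strand) encodes the protease that cuts Rad21. Its level was 68.6, 83.3 and 101 CPM for syngeneic WT and 82.0, 90.8 and 108 for syngeneic KO. The allogeneic WT values were 99.0, 88.9 and 93.2 CPM, and those of allogeneic KO 143, 81.4 and 104. All 4 groups overlapped. The log2 change from syngeneic to allogeneic was 0.15 ± 0.19 in WT (interval −0.27 to 0.57) and 0.22 ± 0.19 in KO (−0.19 to 0.64). Allogeneic KO replicate 1 decided the latter value, which was −0.01 without it. KO against WT in the allogeneic setting was 0.22 ± 0.19, and −0.02 without the same library. That library also held the highest Mki67 level, 1916 CPM against 896 and 1435 in its group, Mki67 being a marker of dividing cells.

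Securin RNA relative to separase RNA was compared within each library, since securin protein binds separase directly. Per kilobase of annotated exon, Pttg1 RNA in the syngeneic setting was 69.9 ± 13.4% (WT) and 76.1 ± 24.8% (KO) of Espl1 RNA, and in the allogeneic setting 98.5 ± 2.42% (WT) and 104 ± 46.03% (KO; SD, n = 3). These shares depend on the gene length used. Over the longest protein-coding transcript, syngeneic Pttg1 averaged 7.85 (WT) and 9.46 CPM per kb (KO), against 12.7 and 14.1 for Espl1. The allogeneic means were 12.6 (WT) and 14.4 CPM per kb (KO), against 14.1 and 16.4 for Espl1. The mean difference in log2 ratio between allogeneic and syngeneic libraries was 0.46, with 0.51 in WT and 0.41 in KO. It did not pass a two-sided exact permutation test that kept genotype fixed (p = 0.065; adjusted over 16 ratio tests, 0.173). The smallest p this test allows is 0.005. Allogeneic WT libraries lay close together, from −2.19 to −2.11, whereas allogeneic KO spanned −2.71 to −1.49. Within that group replicate 1 joined the highest Espl1 value to 21.8 CPM of Pttg1, and replicate 2 the lowest Espl1 value to the highest Pttg1 value. Against the mean of 10 division genes (Mki67, Top2a, Ccna2 and others), Pttg1 differed by 0.38 between settings (exact permutation p = 0.06, adjusted 0.173) and Espl1 by −0.09 (p = 0.48, adjusted 0.698). These 10 genes did not move alike. By edgeR 1 was called higher in allogeneic WT and 2 in KO, and none lower. Ccnb2 rose by 0.90 ± 0.19 in WT and 0.96 ± 0.19 in KO, more than Pttg1, while Mki67 changed by −0.28 ± 0.25 in WT, not called.

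Sororin RNA had its highest mean in allogeneic KO, but its groups overlapped and no comparison passed. Cdca5 (ENSMUSG00000024791, chromosome 19, 6084983 to 6091777, plus strand) protects acetylated cohesin from Wapl. Its values were 26.4, 30.1 and 35.2 CPM in syngeneic WT and 40.0, 34.4 and 30.7 in syngeneic KO. Allogeneic WT libraries gave 44.7, 31.1 and 32.0 CPM, and allogeneic KO libraries 53.9, 43.7 and 34.1. In both allogeneic groups replicate 1 was the highest. KO against WT was 0.20 ± 0.19 in the syngeneic setting (interval −0.21 to 0.61) and 0.29 ± 0.19 in the allogeneic one (−0.12 to 0.70). Set against Wapl RNA, its opponent and the targeted gene, the log2 ratio of Cdca5 was higher in KO by 0.68 and 0.49 in the syngeneic and allogeneic settings. The fitted change of Wapl RNA itself was −0.48 and −0.20, so part of this rise comes from the denominator. The mean difference of 0.58 had an exact permutation p of 0.015 and an adjusted p of 0.16, so it did not pass. Against the division genes Cdca5 differed by −0.000288 between transplant settings (exact permutation p = 0.995) and by 0.06 between genotypes (p = 0.41).

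**Figure D3:**
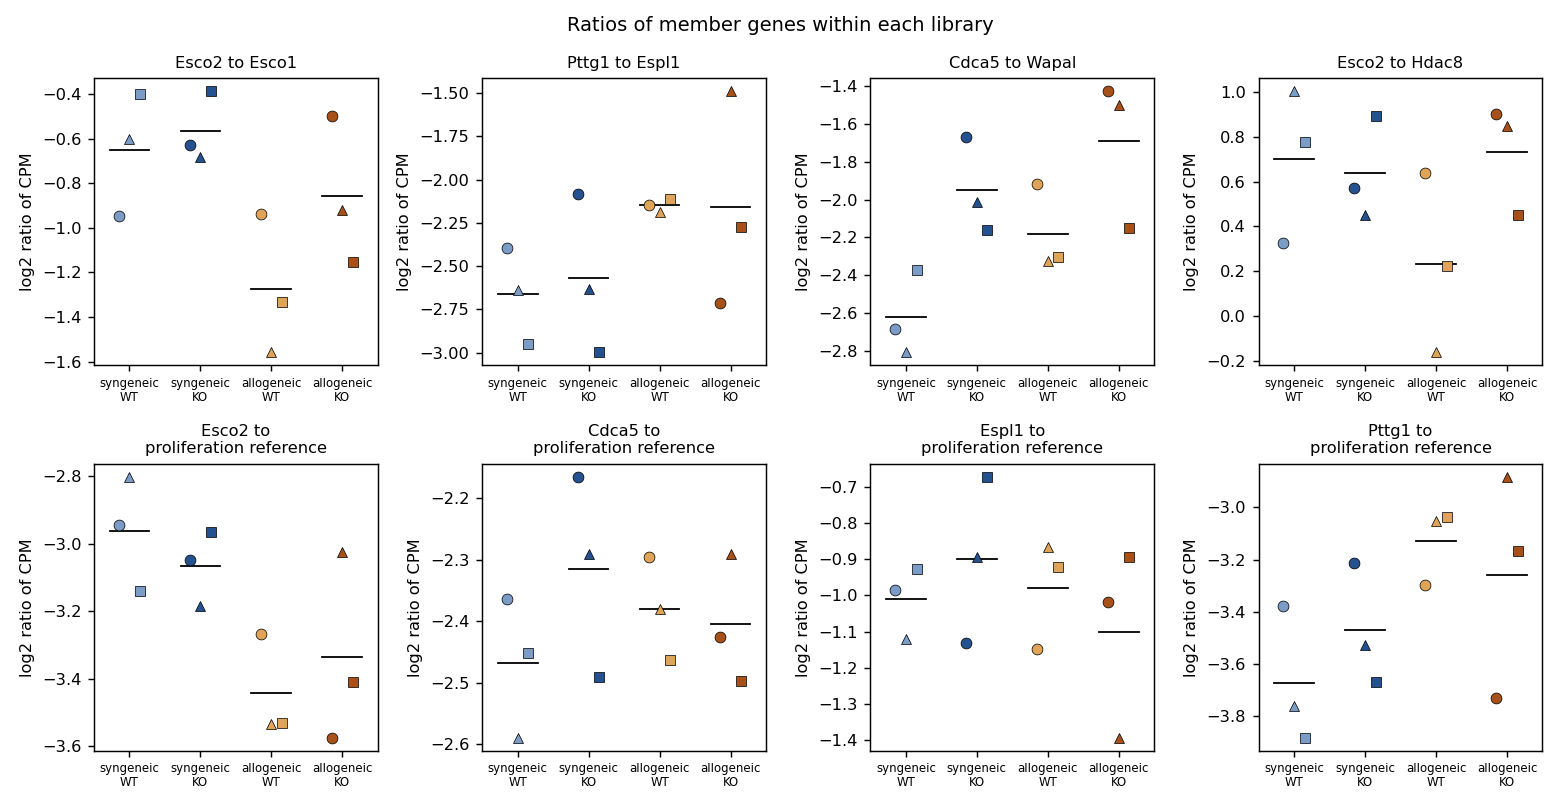
Log2 ratio of CPM for 8 pairs within each library (points; circles, triangles and squares are replicates 1, 2 and 3), with group means as bars. The vertical axes differ between panels and do not start at 0. Esco2 to Esco1 is lowest in allogeneic WT (mean −1.28), and Cdca5 to Wapal is higher in KO by 0.58 on average. Wapal, the denominator there, is the targeted gene and had a lower mean in KO. No ratio passed after adjustment over 16 tests.

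The acetyltransferase genes differed in direction in WT cells, although neither change passed the test. Esco2 (ENSMUSG00000022034, chromosome 14, 65819038 to 65833994, minus strand) acts in S phase and is needed for cohesion in dividing cells. It measured 17.6, 25.9 and 21.8 CPM in syngeneic WT and 22.8, 14.0 and 15.3 in allogeneic WT. The allogeneic minus syngeneic log2 change was −0.33 ± 0.21 (adjusted p = 0.239). In KO the syngeneic values were 21.7, 18.5 and 22.1 CPM and the allogeneic values 24.3, 26.2 and 18.1, a change of 0.14 ± 0.21 (adjusted p = 0.654). KO against WT in the allogeneic setting was 0.40 ± 0.21, with an interval from −0.05 to 0.85 (adjusted p = 0.963). The difference between settings in the KO effect was 0.47 ± 0.29 (adjusted p = 1.00).

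Esco1 (ENSMUSG00000024293, chromosome 18, 10566507 to 10610352, minus strand) acetylates Smc3 through the whole cell cycle, including on rings that form loops. It was at 34.0, 39.4 and 28.9 CPM in syngeneic WT and at 43.6, 41.2 and 38.5 in allogeneic WT, where the lowest allogeneic value fell below the highest syngeneic value. The change was 0.27 ± 0.15 (adjusted p = 0.181). KO values were 33.6, 29.7 and 28.9 CPM in the syngeneic and 34.4, 49.7 and 40.4 in the allogeneic setting. These KO groups did not overlap, and the fitted change of 0.43 ± 0.15 (interval 0.11 to 0.75) had an adjusted p of 0.0514. It passed the threshold in 6 of 13 alternatives. These were scaling by size factors (RLE; 0.0438), the fit without ribosomal RNA genes (0.0401), the replicate block (0.0454), DESeq2 (0.0326), and the fits without syngeneic KO replicate 1 (0.0311) or allogeneic KO replicate 1 (0.0228).

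The log2 ratio of Esco2 to Esco1 averaged −0.65 ± 0.27 in WT and −0.57 ± 0.16 in KO of the syngeneic setting, against −1.28 ± 0.31 and −0.86 ± 0.33 in WT and KO of the allogeneic one (SD, n = 3). The allogeneic minus syngeneic difference was −0.63 in WT and −0.29 in KO, and its mean of −0.46 had an exact permutation p of 0.03 (adjusted 0.16). Esco2 relative to the division genes differed by −0.38 (exact permutation p = 0.02, adjusted 0.16). Neither passed after adjustment over the 16 ratio tests.

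Hdac8 was the steadiest member, with an SD of 0.11 in log2 CPM over the 12 libraries against 0.25 to 0.39 for the other members. Hdac8 (ENSMUSG00000067567, chromosome X, 102284639 to 102505359, minus strand) gave 14.0, 12.9 and 12.7 CPM in syngeneic WT and 14.6, 13.5 and 11.9 in syngeneic KO. Allogeneic WT values were 14.6, 15.6 and 13.1 CPM and allogeneic KO values 13.02, 14.6 and 13.2. All 12 libraries thus lay between 11.9 and 15.6 CPM. Fitted log2 changes ran from −0.09 to 0.13 over the 4 comparisons, and their intervals all lay between −0.36 and 0.40. Hdac8 is X-linked and the KO libraries carried Y-linked RNA, and the part of donor sex in its KO values was not tested.

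KO and WT cells differed in no member by the edgeR test in either setting. Among all genes 3.37% were called in the syngeneic comparison and 0.0542% in the allogeneic one. No member had an unadjusted p under 0.05 in either, against 2578 and 771 of all genes, and DESeq2 called none. A fit of the syngeneic libraries alone with the replicate number as a block, added after the data were seen, called 1287 genes rather than 622 and again no member. Its pairs were inferred from these data, and the labels do not state them. The same libraries without the block gave 349 calls, and the block over all 12 libraries gave 626. Of the 12 myeloid genes 7 fell in syngeneic KO, and of the 11 erythroid genes 9, and their part in the syngeneic values was not tested. Pttg1 was the only member whose syngeneic groups did not overlap, at 13.04 to 13.3 CPM in WT and 13.5 to 19.4 in KO, as was true of 23.3% of all genes. Its log2 change was 0.27 ± 0.16 (adjusted p = 0.469), and 0.07 without syngeneic KO replicate 1, the library with the highest ribosomal RNA share (27.4%). The intervals leave room for sizeable changes. The upper bounds were 0.61 for Cdca5 and Pttg1 in the syngeneic setting and 0.85 for Esco2 in the allogeneic one. Member medians were 0.08 and 0.21 in these comparisons, beside 0.06 and 0.03 over all genes. No member passed the interaction test either, where 0.477% of genes were called. None had an unadjusted p under 0.05 there, against 1144 of all genes, and DESeq2 called none.

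Genes that act with the members were followed in lists. Among 18 genes of the APC/C and its activators, 7 rose in allogeneic over syngeneic WT and 5 in KO, and none fell. Over all tested genes, calls of a higher level made up 16.4% in WT and 13.2% in KO, which is the background for this list and the next ones. Cdc27, a core subunit, rose by 0.43 ± 0.10 and 0.69 ± 0.10 for WT and KO (adjusted p = 0.00583 and 0.000287). Anapc16, a small subunit, rose by 0.77 ± 0.18 and 0.82 ± 0.18 (adjusted p = 0.00671 and 0.00580). Both kept these calls in all 13 alternatives of each comparison. The counts themselves ranged from 4 to 7 in WT and from 2 to 11 in KO over the alternatives. The list medians were 0.25 and 0.33, and those of all genes −0.03 and −0.02.

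Of 12 genes of the prophase pathway and centromere protection, 2 rose in allogeneic WT, about the share over all genes, and 3 in KO. Ppp2r1a, the scaffold of the phosphatase that shields centromeric cohesin, rose by 0.77 ± 0.13 in WT and 0.41 ± 0.13 in KO (adjusted p = 0.000825 and 0.0416). Ppp2r5c, a regulatory subunit, rose in WT and KO by 0.69 ± 0.16 and 0.65 ± 0.16 (adjusted p = 0.00459 and 0.00905). Birc5 (survivin), part of the Aurora B complex, rose in KO by 0.78 ± 0.21 (adjusted p = 0.0189). Of 7 genes that restrain the APC/C, 2 rose in WT and 1 in KO. Mad2l1, which sequesters the activator Cdc20, rose by 0.65 ± 0.20 in both genotypes (adjusted p = 0.0248 and 0.0299). Bub3, its partner at unattached kinetochores, rose by 0.50 ± 0.17 in WT (adjusted p = 0.0398). Ppp2r5c lost its KO call with the 2 groups fitted alone (0.0516). Birc5 lost its call without syngeneic KO replicate 2 or 3 or allogeneic KO replicate 1 or 2 (0.0507 to 0.0808), and so did Mad2l1 in KO (0.0783 to 0.0978). In WT, Mad2l1 lost it without syngeneic replicate 1 or 2 or allogeneic replicate 1 (0.0553 to 0.123), and Bub3 without any syngeneic library or allogeneic replicate 1 (0.0694 to 0.176). Ppp2r1a kept its WT call in all 13 alternatives, while its KO call was not followed over them. Counts of risen prophase genes ranged over the alternatives from 2 to 4 in WT and from 1 to 8 in KO. Those of the checkpoint list ranged from 0 to 3 in each genotype.

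Rad21, the substrate of separase, was the only gene of 10 in the list of ring, loader and release factors that rose. Its log2 changes were 0.51 ± 0.15 and 0.58 ± 0.15 for WT and KO (adjusted p = 0.0202 and 0.0135). The WT call was lost without syngeneic WT replicate 1 (0.0642) or allogeneic WT replicate 1 (0.0845). The KO call was lost without syngeneic KO replicate 2 or 3 or allogeneic KO replicate 1, and with 2 groups alone (0.0564 to 0.0627). Among the class I deacetylases other than Hdac8, Hdac2 fell by 0.44 on the log2 scale in allogeneic WT (adjusted p = 0.0226) and by 0.42 in KO (adjusted p = 0.0352). Leaving out syngeneic WT replicate 1 or 2 or allogeneic WT replicate 2 ended the first call (0.0583 to 0.0817). Leaving out syngeneic KO replicate 1 or 2 or allogeneic KO replicate 2 or 3 ended the second (0.0516 to 0.108). So did using no filter (0.0578) or fitting the 2 groups alone (0.0742). Hdac3 rose by 0.36 ± 0.12 in WT (adjusted p = 0.0438), a call lost in 7 of 13 alternatives. These were upper quartile scaling (0.0535), no filter (0.0546), and the fits without any 1 syngeneic WT library or allogeneic WT replicate 1 or 3 (0.0535 to 0.161). The 19 replication fork cofactors of cohesion, such as Timeless and the Mcm helicase, gave no call between settings by edgeR or DESeq2, with 1 at an unadjusted p under 0.05 in each genotype.

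**Figure D4:**
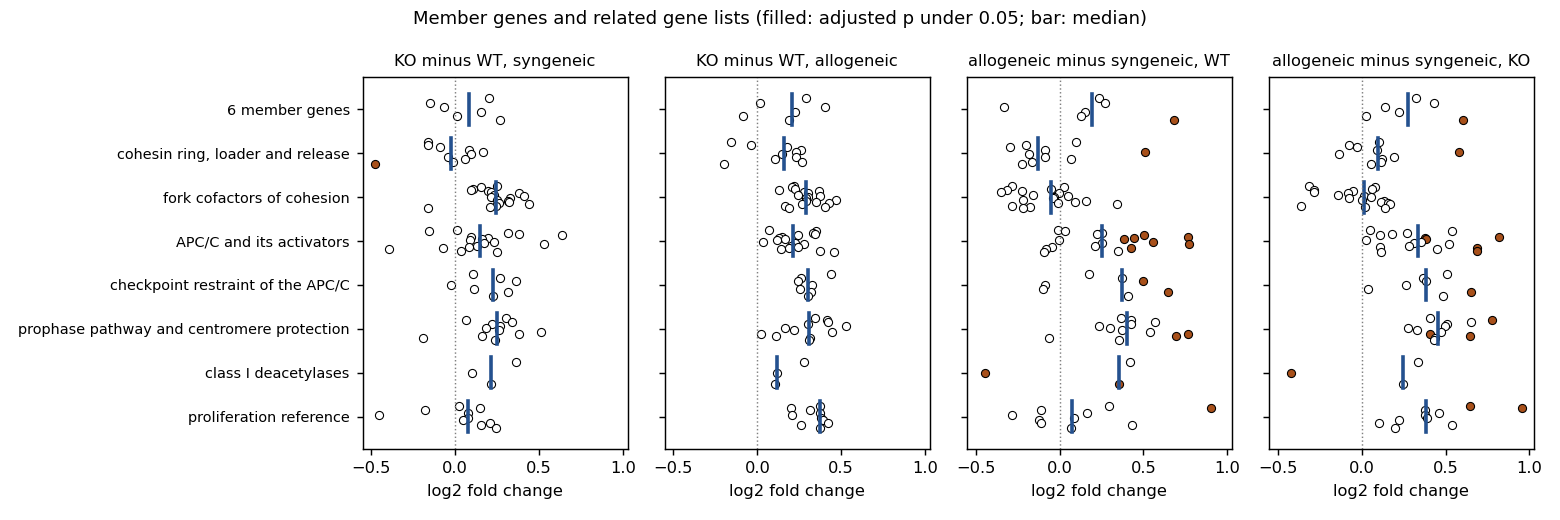
Log2 fold change of each gene in the member set and in 7 related lists, for the 4 comparisons. Each point is a gene, filled where the adjusted p is under 0.05, and the vertical bar is the list median. In the allogeneic against syngeneic panels the filled points of the APC/C list, 7 and 5 of 18, lie to the right of 0, and the only filled point in the KO against WT panels is Wapal at −0.48.

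In KO against WT, Wapal was the only listed gene called among the 7 lists by the fit over 12 libraries. The block within syngeneic libraries also called Anapc15 (0.60 ± 0.12, adjusted p = 0.0157), Cdc20 (0.50 ± 0.11, adjusted p = 0.0235) and Plk1 (0.49 ± 0.10, adjusted p = 0.0160) higher and Fzr1 lower (−0.42 ± 0.11, adjusted p = 0.0453) in syngeneic KO. Anapc15 is an APC/C subunit, Cdc20 and Fzr1 are its activators and Plk1 is a mitotic kinase of the prophase pathway, and these 4 are named because of these calls. Anapc15 was also called by DESeq2 (adjusted p = 0.0211) and with upper quartile scaling (adjusted p = 0.0346). Cdc20, Plk1 and Fzr1 were called in no other alternative. The pairs of that block were inferred from these same libraries. In the fit over 12 libraries the edgeR adjusted p was 0.0709 (Anapc15), 0.255 (Cdc20), 0.343 (Plk1) and 0.316 (Fzr1). The fork cofactors stood higher in KO for 18 of 19 genes in the syngeneic setting and 19 of 19 in the allogeneic one. Their medians of 0.24 and 0.29 compare with 0.06 and 0.03 over all genes, of which 57.0% and 55.1% were positive. None of the 19 was called by edgeR or DESeq2, and 2 had an unadjusted p under 0.05 in each setting. This lean was not particular to the fork cofactors. Every gene of the APC/C, checkpoint, prophase, class I deacetylase and division lists also stood higher in allogeneic KO. Most genes of each of these lists did so in syngeneic KO. The 10 division genes had medians of 0.07 and 0.37, and none was called by edgeR or DESeq2, with 0 and 3 at an unadjusted p under 0.05. Mki67 measured 1492 ± 405 CPM (WT) and 1089 ± 130 (KO) in syngeneic, and 1227 ± 25.9 (WT) and 1416 ± 510 (KO) in allogeneic libraries (SD, n = 3). Its syngeneic change of −0.45 ± 0.25 did not pass (adjusted p = 0.443), nor with the replicate number as a block over all libraries (0.451), but did with the block in syngeneic libraries alone (−0.46, adjusted p = 0.0417).

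Other genes with a profile near that of each member over the 12 libraries were found from the root mean square difference between centred log2 CPM profiles, among 9337 candidates. Closest to Espl1 was Mybl2 (0.0694), a transcription factor of dividing cells, then Ticrr (0.0872), which acts in replication initiation, and Bora (0.0912), an activator of mitotic kinases. Cdca5 was followed by Asf1b (0.0797), a histone chaperone, Polh (0.0815), a DNA polymerase that bypasses damage, and Rrm1 (0.0954), a subunit of ribonucleotide reductase. Esco2 had less close neighbours, Oip5 (0.119), Lin54 (0.137) and Orc2 (0.137), which serve centromere assembly, cell cycle transcription and replication origins. The nearest profiles to Pttg1 were Atp6v1a (0.0686), a subunit of the vacuolar proton pump, Mtpn (0.0692) and Oxsm (0.0706), a mitochondrial fatty acid synthesis enzyme, none of them a division gene of the lists. For Esco1 they were Zfp53 (0.0723), Mier1 (0.0817) and Chic2 (0.0881), and for Hdac8 they included Ikbkg (0.0626) and Tspyl1 (0.0692). Among the members, Esco1 and Hdac8 were closest (0.196) and Esco2 and Pttg1 farthest apart (0.454), while Pttg1 and Espl1 differed by 0.409. The measure is not scaled to a gene's own spread, and the SD was 0.11 for Hdac8 and 0.25 for Esco1. A small difference from the nearly flat Hdac8 therefore need not mean that a gene rose and fell with it. All these differences are descriptions over libraries that share 4 groups. With the median absolute difference instead, Espl1 kept 2 of its 3 neighbours, Esco1 kept 1, and the other members none.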

How the data were processed

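RNA of 12 libraries of sorted mouse donor T cells was analysed, and the members and gene lists were chosen with earlier results of these data known. The authors deposited expected counts per gene. Per the submitters' processing notes the build was GRCm38, and the tools include Cuffdiff 2.2.1, Cufflinks, Bowtie2 2.2.1 and TopHat2 2.0.13, while the annotation and the strand setting of the counting are not given in the sources used here. Between 94.5% and 95% of a library's values were whole, and they were rounded. The 6 naive samples were not analysed here, nor were 6 columns that bear the allogeneic identifiers with an added prefix, whose content could not be worked out. Positions came from GENCODE M21 (45139 of 46073 identifiers found). No member shares exon bases with another annotated gene.

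All 12 libraries entered a single group-means model in edgeR 4.0.16 (R 4.3.3), with TMM scaling, filterByExpr (count minimum 10, 18447 genes) and robust quasi-likelihood F tests, two-sided, 8 residual degrees of freedom. A gene was called where its p, adjusted by Benjamini-Hochberg over the 18447 genes, was under 0.05. Standard errors were derived from the fold change and F. The biological coefficient of variation was 0.249. The procedure was tested on simulated data. Ratios used log2 CPM with a prior count of 2 and exact permutation within genotype or setting. Named genes were the members, Wapal, Mki67, up to 2 called genes per list and comparison with the smallest p, and the 3 nearest profiles per member (mean at least 5 CPM, named genes only), of which 1 is not reported here. Alternatives were other scalings (upper quartile, RLE), no filter, no ribosomal RNA genes, a replicate block, 2 groups alone, DESeq2 1.42.0 and leaving out each library. A block within syngeneic libraries, and levels by longest coding transcript, were added after the data were seen. Same-numbered syngeneic WT and KO libraries had residual r from 0.170 to 0.545. Unlike-numbered ones ran from −0.501 to 0.363, so the ranges overlapped. For the added block the numbers were taken as pairs, a reading drawn from these same data that the labels do not state. In every other pair of groups the lowest same-numbered r was at most 0.0475. The labels call libraries of a group independent triplicates of pooled mice.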

Additional observations from a re-analysis of the deposited data

How the results depend on the processing

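With 3 libraries per group and counting error of at most 4.24% for a member, the spread between libraries, not depth, limits these results. Of 426 recomputed member values, 390 kept direction and side of the threshold, 27 reversed, 6 newly passed and 3 no longer passed. None of the values that reversed was called. Espl1 reversed from 0.22 in both allogeneic KO comparisons, without allogeneic KO replicate 1.

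Upper quartile scaling moved the median of all genes from −0.03 to −0.13 (allogeneic minus syngeneic, WT) and from −0.02 to −0.13 (KO), and the upward share of calls from 50.8% to 43.1% and from 54.2% to 43.8%. Under it Pttg1 kept both calls. Hdac8 turned to −0.0240 (KO minus WT, syngeneic) and −0.0799 (allogeneic minus syngeneic, KO), Esco1 to −0.0252 (KO minus WT, allogeneic) and Wapal to −0.0512 (allogeneic minus syngeneic, KO). The syngeneic KO value of Hdac8 was −0.00982 with RLE scaling, −0.00186 without ribosomal RNA genes, −0.0321 with the syngeneic replicate block, −0.0296 with 2 groups alone and −0.00839 by DESeq2. Without a filter Esco1 stood at −0.00468 (KO minus WT, allogeneic).

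The 622 syngeneic KO calls became 1287 with the replicate block in syngeneic libraries (626 with the block over all libraries), 349 with 2 groups alone, 1008 by DESeq2 and 260 to 742 with a library left out. The 10 allogeneic KO calls became 6 with 2 groups alone, 77 by DESeq2 and 3 to 15 with a library left out. The 4500 calls of allogeneic minus syngeneic in KO became 2669 with 2 groups alone, and the 88 interaction calls 296 by DESeq2 and 28 to 242 with a library left out. Members called in the KO setting comparison numbered 2 instead of 1 with RLE scaling, without ribosomal RNA genes, with the replicate block and by DESeq2, 0 with 2 groups alone, and 0 to 2 with a library left out. The replicate block changed no other member call. The causes of these shifts were not tested, except that fits of 2 groups or with a library left out use fewer samples.

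With a library left out, log2 values that crossed 0 ran as follows. KO minus WT: Esco2 −0.20 to 0.0723 and Hdac8 −0.0888 to 0.0891 (syngeneic), Esco1 −0.15 to 0.13, Espl1 −0.0181 to 0.38 and Mki67 −0.0750 to 0.44 (allogeneic). Allogeneic minus syngeneic in KO: Espl1 −0.0126 to 0.43 and Hdac8 −0.0457 to 0.14. Interaction: Cdca5 −0.0864 to 0.27, Espl1 −0.17 to 0.26 and Pttg1 −0.21 to 0.12. Ratios, KO minus WT: Pttg1 to Espl1 −0.13 to 0.18, and against division genes Esco2 −0.0759 to 0.0616, Espl1 −0.0618 to 0.0679 and Pttg1 −0.0590 to 0.15. The allogeneic minus syngeneic ratio of Cdca5 to division genes ran from −0.0443 to 0.0373.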
